A study of Mus musculus with 12 samples.

Results

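Nuclear receptors are transcription factors that many lipids, steroids, vitamins and thyroid hormone switch on, and 39 of the genes that encode them were followed here through maps of open chromatin. The members were the receptor genes of a fixed list of symbols, and a peak was counted for a member when it lay within 10 kb of the gene's span in the mouse build GRCm38. Of 48003 regions with a peak in any group, 126 lay near these genes, and 2 of them, at Nr1d1, were also in reach of its neighbour Thra. By the same rule 32722 regions lay near the 21631 protein-coding genes.

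The method was ATAC-seq, where a transposase inserts adapters into accessible DNA, applied to mouse aortic endothelial cells (MAECs), the cells that line the aorta. The 8 samples formed 4 groups of 2. A name gives first what the mothers ate (CDM or WDM) and then what the offspring ate (CDO or WDO): CDM-CDO, WDM-CDO, CDM-WDO and WDM-WDO. The animals of CDM-WDO and WDM-WDO had been put back on WD for 4 weeks. The labels abbreviate the diets as CD and WD, and give no strain, sex or age, nor how many animals gave each sample. The peak names in both CDO lists carry week 8 and those in both WDO lists week 12, so the diet of the offspring and that time point cannot be told apart. Each group had 1 peak list for its 2 samples, so there was no replicate spread, and no difference below carries a test or a p-value. Values are given in the order CDM-CDO, WDM-CDO, CDM-WDO and WDM-WDO unless a sentence says otherwise.

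Nuclear receptors share a DNA-binding domain and, in most of them, a pocket for a small molecule. Many of them, such as the PPARs, the retinoic acid receptors and the vitamin D receptor, pair with an RXR on DNA, whereas the steroid receptors pair with themselves and the REV-ERBs repress genes of the circadian clock. In the vessel wall, receptors for fatty acids, glucocorticoids and mineralocorticoids are known for their effects on inflammation and vascular tone. Open chromatin at a receptor gene is not a measure of the receptor's level, and it says nothing of its ligand.

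The lists differed in size, and most differences at single genes have to be read beside that. They held 22178, 28319, 18962 and 26275 peaks on chromosomes 1 to 19 and X. A call needed at least 14, 15, 15 and 16 reads at the summit. Reads at a summit above the local background were divided by a scale factor per list (0.924, 1.34, 0.748 and 1.11), taken from the 10351 regions found in all 4 lists, and are called scaled reads below. A lower level in a group can come from fewer cells with the site open or from less opening per cell, and these cannot be told apart in bulk samples. Markers of other cells moved with the groups too. Of the endothelial markers searched, 5, 7, 8 and 7 of 8 had a peak within 10 kb, and Cdh5, which encodes VE-cadherin, had none in CDM-CDO. T cell markers had one at 4, 4, 1 and 3 of 4, B cell markers at 4, 4, 2 and 2 of 4, macrophage markers at 5, 5, 4 and 6 of 6, and neutrophil markers at 1, 1, 2 and 3 of 4. Adipocyte markers had one at 2, 3, 2 and 3 of 3, and smooth muscle markers at 3, 2, 1 and 2 of 4. Among fibroblast markers the counts were 2, 2, 3 and 3 of 5. Myh11, S100a9, Dcn and Lum had none in any list. The highest −log10 q, the authors' score, near an endothelial marker was 10.52, 16.67, 18.95 and 19.98. It was 37.48, 65.05, 13.06 and 49.84 near a T cell marker, and 85.29, 64.62, 20.04 and 52.72 near a B cell marker. Only the T cell value in CDM-WDO was below the endothelial one. The Cd3e start (T cell) held 61.5 and 61.4 scaled reads in the CDO lists and had no call in either WDO list. The Tie1 start (endothelial) held 25.5, 24.3, 54.6 and 25.1. The part that other cells had in the results below was not tested.

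Before the values, 6 promoters are shown, since the peaks at them span the patterns found: Nr1d2, Esrra and Nr2c2 had a start peak in all 4 lists, Vdr in all but CDM-WDO, and Nr4a2 and Nr2f6 in WDM-CDO only. Each is the 250 bases before the transcription start in the RefSeq table of GRCm38.p6, which held a start for 35 of the 39 members (not for Hnf4g, Nr3c1, Thra and Nr5a1). They lie at chr14:18239107-18239356 (minus strand), chr19:6921809-6922058 (minus), chr6:92092183-92092432 (plus), chr2:57124004-57124253 (minus), chr15:97908297-97908546 (minus) and chr8:71381953-71382202 (minus). All 250 bases lie inside the open region named above, except at Nr2f6, where 155 do. Capitals mark matches on either strand to any of 6 motifs, which were AGGTCA (the receptor hexamer), CACGTG (the E-box), TGANTCA (AP-1), TGACGTCA (the CRE), CGGAAG (the ETS core) and GGGCGG (the GC box).
Nr1d2 promoter: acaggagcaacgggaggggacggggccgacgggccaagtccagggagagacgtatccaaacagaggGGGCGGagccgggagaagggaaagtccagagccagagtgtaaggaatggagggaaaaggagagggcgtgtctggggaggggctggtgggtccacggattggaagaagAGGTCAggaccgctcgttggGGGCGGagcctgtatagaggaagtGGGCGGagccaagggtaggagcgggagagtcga
Esrra promoter: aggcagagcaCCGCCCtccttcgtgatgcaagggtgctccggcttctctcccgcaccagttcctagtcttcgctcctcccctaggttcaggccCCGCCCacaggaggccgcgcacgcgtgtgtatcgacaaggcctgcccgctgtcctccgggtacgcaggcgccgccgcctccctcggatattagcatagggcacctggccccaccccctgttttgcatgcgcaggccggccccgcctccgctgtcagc
Nr2c2 promoter: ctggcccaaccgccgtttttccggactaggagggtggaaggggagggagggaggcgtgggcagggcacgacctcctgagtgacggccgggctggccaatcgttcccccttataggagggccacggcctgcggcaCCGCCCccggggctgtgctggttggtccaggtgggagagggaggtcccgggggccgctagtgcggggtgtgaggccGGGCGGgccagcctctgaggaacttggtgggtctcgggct
Nr4a2 promoter: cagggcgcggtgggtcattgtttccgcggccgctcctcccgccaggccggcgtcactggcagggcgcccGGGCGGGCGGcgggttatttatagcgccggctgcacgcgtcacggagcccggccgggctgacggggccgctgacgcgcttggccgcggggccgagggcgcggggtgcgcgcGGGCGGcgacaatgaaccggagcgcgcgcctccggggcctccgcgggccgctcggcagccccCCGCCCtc
Vdr promoter: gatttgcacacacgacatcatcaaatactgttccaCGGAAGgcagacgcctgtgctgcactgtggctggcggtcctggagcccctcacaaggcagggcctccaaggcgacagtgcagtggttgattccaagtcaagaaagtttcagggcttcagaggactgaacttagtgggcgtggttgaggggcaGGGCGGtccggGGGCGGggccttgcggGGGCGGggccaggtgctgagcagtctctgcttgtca
Nr2f6 promoter: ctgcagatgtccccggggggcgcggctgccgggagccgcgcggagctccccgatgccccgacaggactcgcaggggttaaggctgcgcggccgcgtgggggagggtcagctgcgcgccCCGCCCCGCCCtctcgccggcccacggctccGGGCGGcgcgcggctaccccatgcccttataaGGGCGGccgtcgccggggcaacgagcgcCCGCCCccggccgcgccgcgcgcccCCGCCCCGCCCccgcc

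In these 6 promoters nearly all capitals are GGGCGG or its reverse complement, the GC box. It occurs 7 times at Nr2f6, 4 times at Nr4a2, where matches overlap, and 3 times at Nr1d2 and Vdr. The exceptions are 1 AGGTCA at Nr1d2, the hexamer that receptors recognise, and 1 CGGAAG at Vdr, the core that ETS factors recognise. The GC box was present in 46.2% of 52 promoters of the members and in 32.7% of all 32851 promoters in the table. The receptor hexamer AGGTCA was in 15.4% against 14%, and the E-box CACGTG in 7.69% against 6.02%. AP-1 letters TGANTCA were in 5.77% against 6.75%, the CRE TGACGTCA in 1.92% against 1.55%, and the ETS core CGGAAG in 7.69% against 13.6%. A match describes the letters and is not a measured binding site.

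A peak within 10 kb was found for 29, 34, 26 and 25 of the 39 receptor genes. These are 74.4%, 87.2%, 66.7% and 64.1%, with 95% Wilson intervals of 58.9 to 85.4%, 73.3 to 94.4%, 51.0 to 79.4% and 48.4 to 77.3% that cover counting error only. Of all protein-coding genes the shares were 64.5%, 68.8%, 58.9% and 66.0%. The share of receptors in WDM-CDO lay above that of all genes by more than counting error, and the other shares did not. WDM-CDO was also the longest list, and with all lists cut to the same length 27, 26, 26 and 23 receptors had a peak, none of them a share that differed from that of all genes (61.9%, 61.9%, 58.9% and 60.0%) by more than counting error. The median span was 53.9 kb for the receptors and 17.3 kb for all genes. By span, a peak in WDM-CDO was found for 9 of 9 receptors under 20 kb (58.7% of all such genes), 16 of 19 of 20 to 100 kb (79.4%) and 9 of 11 of 100 kb or more (84.7%). In CDM-CDO, CDM-WDO and WDM-WDO it was found for 8, 6 and 6 of the 9 (54.1%, 49.2% and 56.3%). For the 19 the counts were 12, 12 and 13 (75.7%, 67.9% and 77.2%), and for the 11 they were 9, 8 and 6 (79.9%, 77.8% and 78.4%).

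At transcription starts the receptors had a peak about as often as genes in general. A peak within 1 kb of a start was found for 15, 20, 14 and 15 of the 35 members with a start in the table (42.9%, 57.1%, 40.0% and 42.9%). Of the 17274 genes with a start in the table it was found for 50.5%, 53.5%, 42.9% and 50.2%. Of the 126 regions, 39 were found in all 4 lists (31.0%, against 28.7% of regions near all genes) and 54 in 1 list (42.9%, against 46.0%). Regions at a member's own start were in all 4 lists in 17 of 27 cases (63.0%, against 63.5% of start regions of all genes) and in 1 list in 8 (29.6%, against 14.1%). Those at the start of a neighbouring gene were in all 4 lists in 11 of 13 cases (84.6%, against the same 63.5%). Of 86 regions away from starts, 11 were in all 4 lists (12.8%) and 46 in 1 (53.5%, against 59.7% of such regions of all genes). Across gene bodies and flanks, then, most sites were seen in some groups only, as they were for genes in general (13.8% of such regions in all 4 lists).

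Across the 4 lists, 20 receptors had a peak in every list (52.4% of all genes did) and 3 had none in any list (23.3% of all genes). The 3 were Rxrg, an RXR of muscle and brain, Nr5a1, the steroidogenic factor of adrenal and gonad, and Esr2, which encodes estrogen receptor beta. Of the other 16, 5 had a peak in 1 list, 4 in 2 and 7 in 3, and the matching shares of all genes were not counted.

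**Figure D1:**
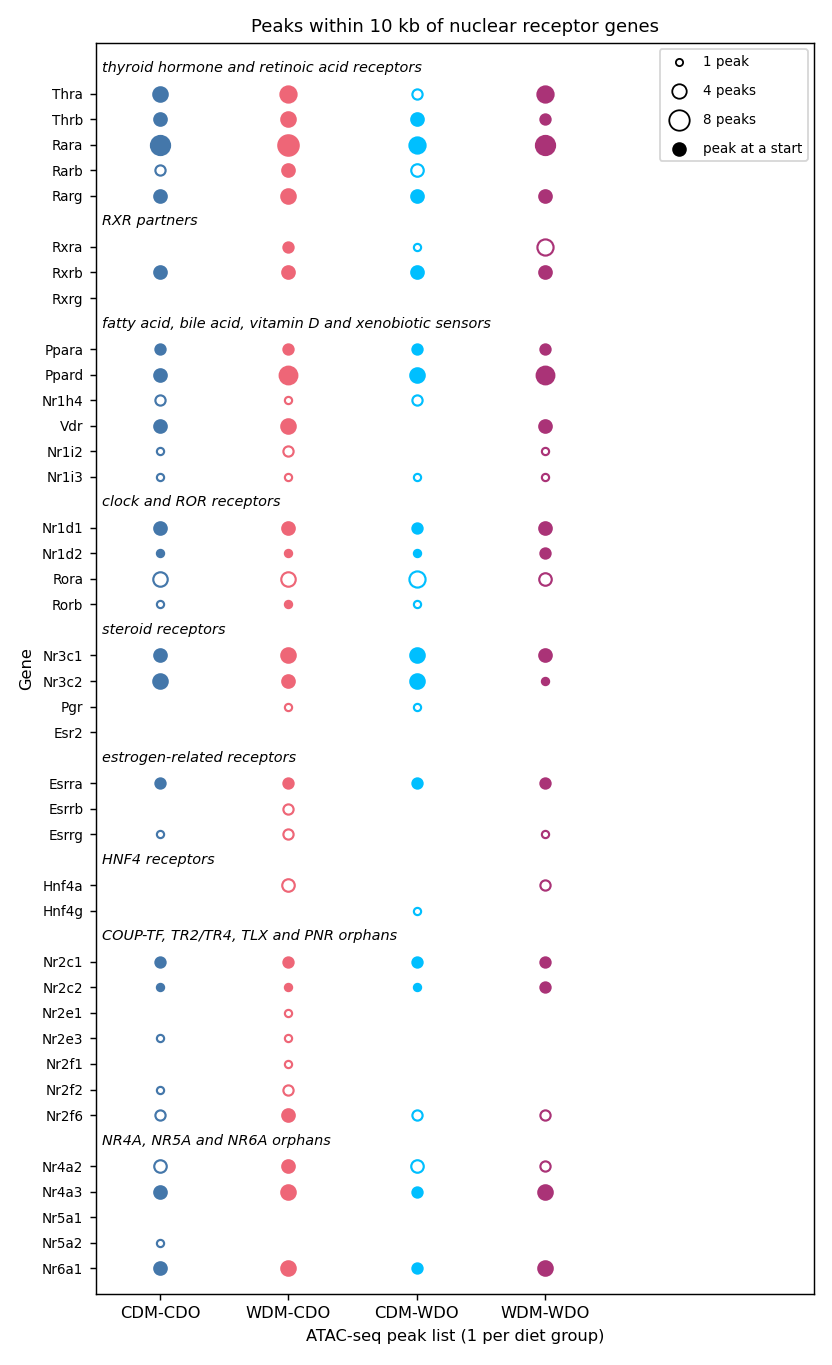
Peaks within 10 kb of each of the 39 receptor genes (rows, grouped by role) in the 4 peak lists (columns). Circle area grows with the number of peaks, and a filled circle marks a peak within 1 kb of a start, or of a gene end for the 4 genes without a start in the table. A row with no circle had no peak. The columns hold circles for 29, 34, 26 and 25 genes, from lists of unequal length.

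The circadian receptors Nr1d1 and Nr1d2 encode REV-ERB alpha and beta, repressors in the clock loop. They carried some of the strongest peaks of all members. The region over the Nr1d2 start held 213.6, 229, 255 and 203 scaled reads, and its −log10 q, the authors' score, reached 177.5 in WDM-CDO. No list stood apart from the rest there. The region just inside Nr1d1, at chr11:98773034-98774833, held 96.1, 152, 202 and 169 scaled reads, so it was lowest in CDM-CDO. Its second region, over the start, held 55.1, 72.7, 100.5 and 83.1 and was again lowest in CDM-CDO and highest in CDM-WDO.

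On the log2 scale the first Nr1d1 region was higher by 0.66 in WDM-CDO than in CDM-CDO (counting SE 0.20), at the 97.9th percentile of the 10351 regions. It was higher by 1.07 in CDM-WDO than in CDM-CDO (counting SE 0.22), at the 97.1st percentile. Between WDM-WDO and CDM-WDO the difference was −0.26, inside the range of −0.95 to 0.85 that held the central 95% of shared regions. The hour at which cells were taken is not in the labels. A further Nr1d1 region, 8.0 kb upstream, held 24.3, 27.1 and 43.6 scaled reads and had no call in CDM-WDO. To set such a missing call beside the depth, the reads expected in the other list were computed from the scaled reads and the local background, and compared with those a call needed over that background. At the level of WDM-WDO, 44.7 reads would be expected there in CDM-WDO, where 26 were needed, but at the level of CDM-CDO only 30.5. Such a level comes from a list that passed the call, so it tends to be high. The expected reads here and below tend to be too high with it.

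Rora and Rorb encode ROR receptors, which act on many of the same DNA sites as the REV-ERBs. Rora, with a span of 735 kb, had 8 regions, none within 1 kb of its start in the table, and 5 of them were in 1 list only. The region at 636.9 kb from its 5′ end was in all lists, with 39.6, 55.8, 43.3 and 37.2 scaled reads. At 381.1 kb a region held 47.5 in CDM-CDO, 37.6 in WDM-CDO and 19.3 in WDM-WDO, with none in CDM-WDO. Rorb had 3 regions of at most 14.1 scaled reads, each in a different list and none in WDM-WDO.

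**Figure D2:**
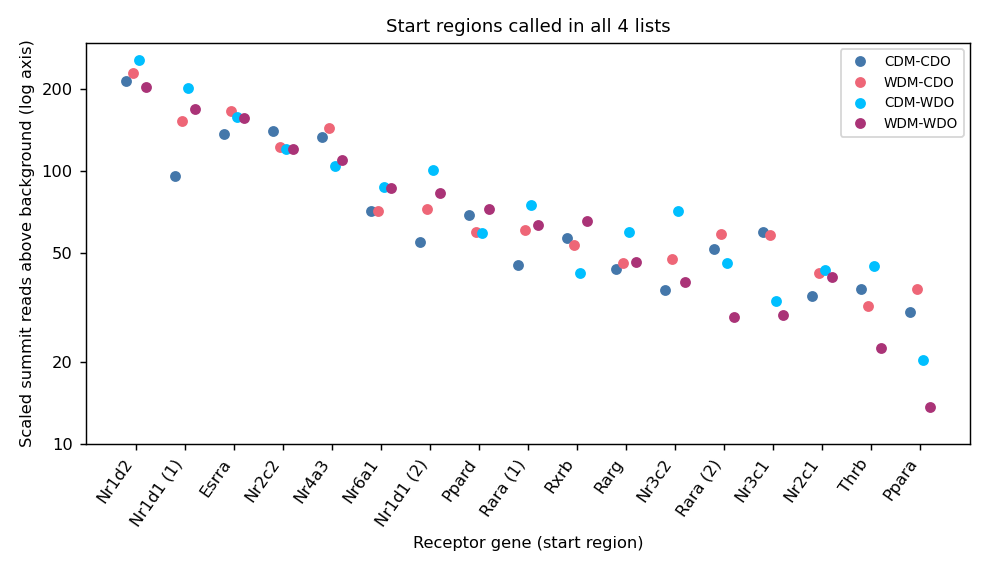
Scaled reads at the summit (log axis) of the 17 start regions that all 4 lists shared, with 1 point per list. Numbers in brackets separate 2 start regions of 1 gene, and for Nr3c1 the region lies at a gene end because the table gave no start. Levels run from 255 at Nr1d2 in CDM-WDO to 13.7 at Ppara in WDM-WDO, and Nr1d1 (1) spreads widest near the top.

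Over these 17 start regions CDM-WDO was highest at 9, although it was highest at 23.1% of all 6251 shared start regions. CDM-CDO was lowest at 8 (24.7% of all), WDM-WDO at 6 (29.9%), CDM-WDO at 3 (29.6%) and WDM-CDO at 0 (15.8%). The median log2 difference between CDM-WDO and CDM-CDO was 0.26 over the 17, against −0.04 over all shared starts. Between WDM-WDO and CDM-WDO it was −0.24 against 0.01. Over all 39 shared member regions, at starts or elsewhere, the median was −0.01 in both comparisons.

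The PPARs are sensors of fatty acids. Ppard encodes a receptor that drives fatty acid oxidation and is expressed in endothelium. Its start region held 69.1, 60.0, 59.1 and 72.7 scaled reads and differed little between lists. The strongest region lay inside the gene, 24.3 kb from the start, at chr17:28256491-28257518, with 118.9, 149, 57.9 and 112 scaled reads. CDM-WDO was the low list there, by 0.95 on the log2 scale against WDM-WDO (counting SE 0.29, 98.5th percentile of shared regions).

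At 27.3 kb a neighbouring Ppard region held 26.0 (WDM-CDO), 55.4 (CDM-WDO) and 85.7 (WDM-WDO) scaled reads and was not called in CDM-CDO. The level of CDM-WDO would give 68.1 reads in CDM-CDO, where a call over the local background needed 33, and that of WDM-CDO 47.8, where it needed 42. From the level of CDM-WDO, reaching a call was fixed in advance, because CDM-CDO had the larger scale factor. Further in, regions at 47.7 and 61.8 kb were called only in the 2 lists with WDM mothers. They held 14.5 and 18 scaled reads in WDM-CDO, and 31.1 and 40.5 in WDM-WDO. The level of WDM-WDO would give 33.7 and 42.0 reads in CDM-WDO, against 23 and 25 needed. Expected in CDM-CDO at the level of WDM-CDO were 23.3 and 27.6, against 22 and 24 needed, so there the missing calls lay close to the limit.

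Ppara, the receptor behind fasting fat oxidation in liver, had a weaker start region of 30.4, 36.9, 20.3 and 13.7 scaled reads. Both WDO lists were below both CDO lists. The difference between WDM-WDO and WDM-CDO was −1.43 on the log2 scale (counting SE 0.53), at the 0.6th percentile of shared regions, whose central 95% ran from −1.05 to 1.19. The other Ppara region lay at the start of its neighbour Cdpf1, with 67.2, 76.8, 46.0 and 57.7.

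**Figure D3:**
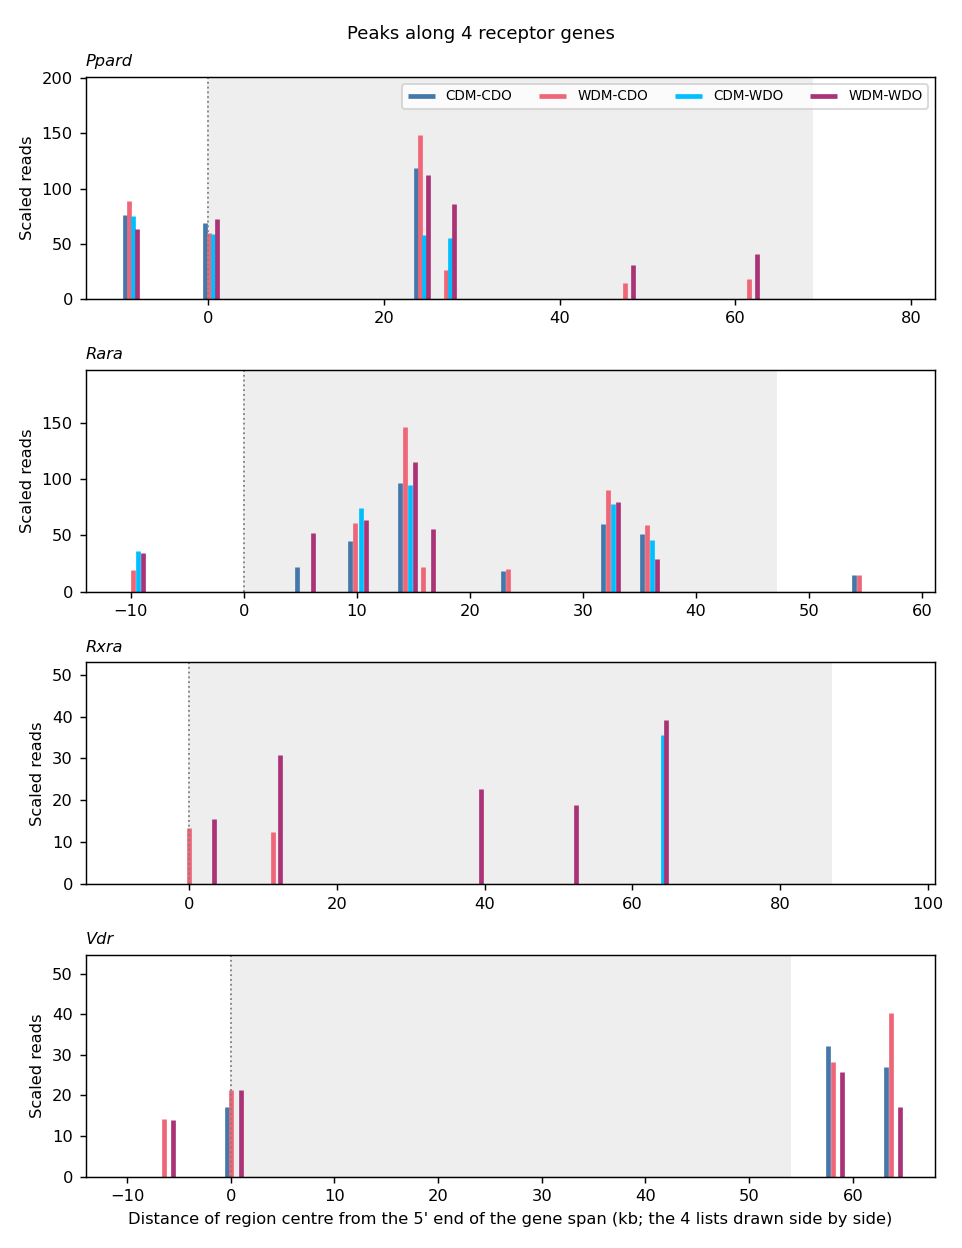
Scaled reads of each region (bars) against the distance of its centre from the 5′ end of the gene span, for 4 receptor genes, with the 4 lists drawn side by side and the gene span shaded. In Ppard the 2 regions furthest from the start have bars only for WDM-CDO and WDM-WDO, in Rxra CDM-CDO has no bar, and in Vdr CDM-WDO has none.

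Vdr encodes the vitamin D receptor. It had 3, 4, 0 and 3 peaks, and CDM-WDO was the list without any. The start region, at chr15:97907368-97908634, held 17.1, 21.3 and 21.3 scaled reads in the lists where it was called. A region 58.3 kb from the start, past the end of the gene, held 32.1, 28.3 and 25.7, and one at the start of the neighbour Hdac7 held 26.9, 40.4 and 17.2. In CDM-WDO, 20.8, 33.2 and 31.0 reads would be expected at these 3 sites at the level of CDM-CDO, against 20, 21 and 24 for a call. The start region was thus at the limit, and at the level of WDM-WDO so was the Hdac7 site, with 21.3 against 20.

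The bile acid receptor Nr1h4 (FXR) had no start peak. A region inside it held 12.8 scaled reads in CDM-CDO and 18.1 in CDM-WDO and was not called in the other 2 lists. Its other region lies over the start of Gas2l3 and held 68.2, 57.1, 89.3 and 103.2. Its edge is 9802 bp from Nr1h4, so by the 10 kb rule the WDM-WDO peak, a little shorter, fell outside and Nr1h4 counted as without a peak in WDM-WDO. The xenobiotic sensor Nr1i2 (PXR) had 2 flanking regions nearer to Gsk3b, with at most 37.5 scaled reads and no call in CDM-WDO. That of Nr1i3 (CAR), over the start of Apoa2, held 97.8, 105.3, 114 and 109.2 and differed little between lists.

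The RXRs are the common partners of these sensors. Rxra had 0, 2, 1 and 5 peaks, and most were weak. Its start region was called in WDM-CDO only, with 13.4 scaled reads. At that level 22.7 reads would be expected in CDM-CDO, below the 23 needed, and 27.9 in WDM-WDO, where 27 were needed. The most marked region lay 63.9 kb into the gene, at chr2:27740128-27740547, with 35.5 in CDM-WDO and 39.2 in WDM-WDO and no call in either CDO list. Expected at the level of CDM-WDO were 47.6 reads in CDM-CDO, where 30 were needed, and at that of WDM-WDO 68.0 in WDM-CDO, where 31 were needed. Reaching a call was fixed in advance in both directions, because the list without the call had the larger scale factor. A region at 11.6 kb held 12.4 in WDM-CDO and 30.9 in WDM-WDO and was not called in the lists with CDM mothers. At the level of WDM-CDO, 21.2 reads would be expected in CDM-CDO, below the 22 needed. At that of WDM-WDO, 35.3 would be expected in CDM-WDO, where 26 were needed. Rxrb, in a dense gene cluster, had 3 regions in every list, and its start region, shared with Slc39a7, held 56.8, 53.5, 42.3 and 65.4.

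Retinoic acid receptors bind a derivative of vitamin A. Rara had 7, 8, 5 and 7 peaks in 9 regions, of which 4 were in all lists. The strongest lay 14.5 kb into the gene and held 97.2, 147, 94.7 and 116. At its downstream start region the levels were 51.6, 59.0, 46.0 and 29.1, with WDM-WDO below WDM-CDO by 1.02 on the log2 scale (counting SE 0.40, 2.7th percentile). A region at 16.1 kb was called only in the lists with WDM mothers, with 21.9 and 55.9. The local background was high there. At the level of WDM-WDO, 73.4 reads would be expected in CDM-WDO, 1.39 times what a call needed, and at that of WDM-CDO 57.0 in CDM-CDO, which is below the 59 needed. Another, at 5.4 kb, held 21.9 in CDM-CDO and 51.8 in WDM-WDO and was called in neither other list.

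Rarg, the receptor of skin and cartilage, had a start region of 43.7, 46.1, 59.8 and 46.3. The region over the start of its neighbour Itgb7, a leukocyte integrin gene, held 17.5, 15.5, 31.2 and 50.2. It was higher in WDM-WDO than in WDM-CDO by 1.70 on the log2 scale (counting SE 0.46, 99.8th percentile). Rarb, which spans 651 kb and is itself a target of retinoic acid, had 2, 3, 3 and 0 peaks in 7 regions. None exceeded 19.9 scaled reads and 6 were in 1 list.

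Thyroid hormone receptors bind T3 and repress genes in its absence. Thra had 4, 5, 2 and 5 peaks, but the 2 in CDM-WDO were those at the start of Nr1d1, which overlaps the 3′ part of Thra on the opposite strand. At the lower-coordinate end of Thra a region held 26.2 in CDM-CDO and 17.8 in WDM-WDO and was not called in the other lists. A separate region within 1 kb of that end held 18.5 in WDM-CDO only. Thrb had 8 regions over 381 kb, 6 of them in 1 list. A Thrb region at 343.1 kb held 25.9 in CDM-CDO and 27.9 in WDM-CDO and was called in neither WDO list. At the level of WDM-CDO, 38.6 reads would be expected in WDM-WDO, where 19 were needed. At that of CDM-CDO, 25.3 would be expected in CDM-WDO, where 16 were needed. The Thrb start region, shared with an uncharacterised locus, held 37.0, 32.0, 44.9 and 22.4. WDM-WDO was below CDM-WDO there by 1.0 on the log2 scale (counting SE 0.44, 2.2nd percentile).

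Receptors of corticosteroids were open in every list. Nr3c1 encodes the glucocorticoid receptor, through which cortisol or corticosterone restrains inflammation. At its upper-coordinate end a region held 59.6, 58.4, 33.4 and 29.6 scaled reads, so both WDO lists were below both CDO lists. The log2 difference was −0.84 between CDM-WDO and CDM-CDO (counting SE 0.39, 5.2nd percentile) and −0.98 between WDM-WDO and WDM-CDO (counting SE 0.34, 3.0th percentile). Both lay inside the central 95% of shared regions. A stronger Nr3c1 region, 27703 bp inside that end, held 98.3, 87.0, 69.7 and 79.8.

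Nr3c2 encodes the mineralocorticoid receptor, the target of aldosterone. Its start region held 36.5, 47.4, 71.5 and 39.1, highest in CDM-WDO, which was above CDM-CDO by 0.97 on the log2 scale (counting SE 0.36, 95.9th percentile). It had 4, 3, 4 and 1 peaks, and the other 5 regions held at most 22.6. Of the sex steroid receptors, Pgr, for progesterone, had 1 region near its start, with 12.0 in WDM-CDO and 24.7 in CDM-WDO. Esr2 had none.

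Estrogen-related receptors resemble estrogen receptors without binding estrogen, and Esrra drives mitochondrial genes together with the PGC-1 coactivators. The Esrra start held 136.6, 166.5, 158 and 156.5 and was among the most even of the members. A second region, at the starts of Prdx5 and Trmt112, held 110.6, 114, 75.0 and 102. Esrrb had 2 regions in WDM-CDO only, of 9.1 scaled reads each, and Esrrg had 4, each in 1 list, with at most 17.9. HNF4 receptors are hepatic and intestinal regulators. Hnf4a had 0, 3, 0 and 2 peaks, all near or past its 3′ end. Its strongest region held 19.5 in WDM-CDO and 29.4 in WDM-WDO, and at the latter level 31.6 reads would be expected in CDM-WDO, where 22 were needed. Hnf4g had 1 region, in CDM-WDO, of 15.4.

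The orphans are receptors named before a ligand was known. Nr2c1 and Nr2c2 encode TR2 and TR4. The Nr2c2 start held 139.6, 123, 121 and 120.4, as even as Esrra, and the Nr2c1 start held 34.7, 42.4, 43.2 and 40.9. The region at the start of Ndufa12, 1650 bp past Nr2c1, held 50.4, 56.0, 23.6 and 65.0. WDM-WDO was above CDM-WDO there by 1.46 on the log2 scale (counting SE 0.45), at the 99.9th percentile and the furthest out of the members in that comparison.

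COUP-TFs shape vessel identity, and Nr2f2 (COUP-TFII) is a marker of venous endothelium. Nr2f2 had 1, 2, 0 and 0 peaks, and the largest, inside the gene in WDM-CDO only, held 19.9. Nr2f1 had 1 region upstream, in WDM-CDO only, of 12.4. The Nr2f6 start was called in WDM-CDO only, with 20.4, a level at which 32.0 reads would be expected in CDM-CDO, 1.19 times what a call needed. Its 2 flanking regions, at the starts of Use1 and Ocel1, were in all 4 lists, and the latter held 157, 124, 139.5 and 139. Nr2e3, a photoreceptor gene, had 1 region past its end, with 34.4 and 31.1 in the CDO lists and none in either WDO list. In WDM-WDO, 44.8 reads would be expected at the level of WDM-CDO, where 23 were needed. Nr2e1 had 1 weak region, of 8.6, in WDM-CDO.

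NR4A genes are immediate early genes, induced within the hour by growth factors and inflammatory signals. A region 1.8 kb upstream of Nr4a3 held 209.3, 213, 213 and 184, and its start held 134, 144, 104 and 109.5. Both were in all lists, among the strongest of the members. At Nr4a2 the start was called in WDM-CDO only, with 22.9 scaled reads and a −log10 q of 12.8, the highest among the 37 member regions that WDM-CDO had and CDM-CDO lacked. At that level, 27 and 32.7 reads would be expected in CDM-CDO and WDM-WDO, where 16 and 18 were needed. A region 8.2 kb inside the Nr4a2 span, by contrast, was in all lists, with 55.1, 55.5, 62.0 and 49.1. Nr6a1 (germ cell nuclear factor) had an even start region of 71.3, 71.3, 87.3 and 86.7, and Nr5a2 had 1 region, in CDM-CDO, of 12.1.

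The 4 comparisons of the design were then read over all member regions. For the diet of the mothers with offspring on CD, 104 regions were in WDM-CDO or CDM-CDO. Of these, 37 (35.6%, 27 to 45.1%) were in WDM-CDO only, against 29.0% near all genes, and 14 (13.5%) in CDM-CDO only, against 12.5%. At the level of genes, 6 receptors (Rxra, Pgr, Esrrb, Hnf4a, Nr2e1 and Nr2f1) had a peak in WDM-CDO alone, where 6.96% of all genes did. Nr5a2 was the 1 receptor with a peak in CDM-CDO alone (2.65% of all genes).

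For the diet of the mothers with offspring on WD, 86 regions were in either list. In WDM-WDO only there were 28 (32.6%), against 41.0% near all genes, and in CDM-WDO only 16 (18.6%), against 13.2%. Vdr, Nr1i2, Esrrg and Hnf4a had a peak in WDM-WDO alone (11.4% of all genes), and Rarb, Nr1h4, Rorb, Pgr and Hnf4g in CDM-WDO alone (4.24%). Hnf4a was thus the 1 receptor with peaks in both lists with WDM mothers and in neither list with CDM mothers. The share of all genes with this pattern was not counted. Of the members' 126 regions, 9 (7.14%) were in both lists with WDM mothers only, against 3.75% near all genes. In both lists with CDM mothers only were 2 (1.59%), against 0.348%, and these regions, at Nr1h4 and Nr3c2, held at most 18.1 scaled reads. WDM-CDO and WDM-WDO were also the longest lists (28319 and 26275 peaks), and the part of list length in this pattern was not tested.

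Comparisons between offspring diets, which are also comparisons of week 8 with week 12, gave the following counts. Of 83 regions in CDM-WDO or CDM-CDO, 16 (19.3%) were in CDM-WDO only, against 17.6%, and 25 (30.1%) in CDM-CDO only, against 35.1%. Rxra, Pgr and Hnf4g had a peak in CDM-WDO alone (4.63% of all genes), and Vdr, Nr1i2, Esrrg, Nr2e3, Nr2f2 and Nr5a2 in CDM-CDO alone (10.2%). Of 104 regions in WDM-WDO or WDM-CDO, 14 (13.5%, 8.19 to 21.3%) were in WDM-WDO only, against 22.9% near all genes. Its counting interval left out the value of all genes, which the other 7 did not. The gap was smaller with lists of equal length, at 16.2% (9.53 to 26.2%) against 18.7%, and the interval then held the value of all genes, as it did for the gene span alone (10.4 to 28.4% against 21.4%) and a 5 kb window (9.61 to 24.7% against 22.3%). In WDM-CDO only there were 34 (32.7%), against 27.5%. No receptor had a peak in WDM-WDO alone (4.23% of all genes), and 9 (Rarb, Nr1h4, Rorb, Pgr, Esrrb, Nr2e1, Nr2e3, Nr2f1 and Nr2f2) had one in WDM-CDO alone (7.0%). The comparisons share lists with each other, so they are not independent.

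**Figure D4:**
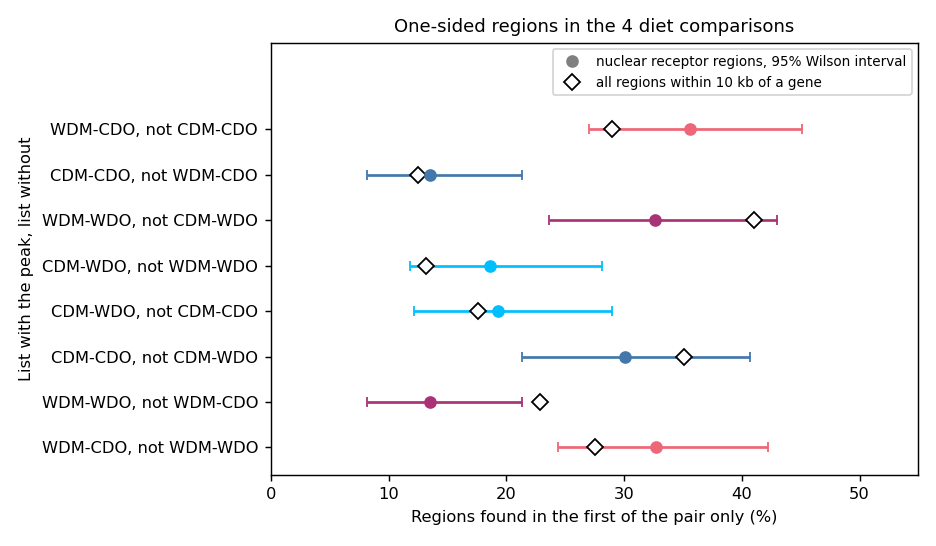
Share of member regions found in the first list of a pair and not in the second (circles, with 95% Wilson intervals for counting error), beside the same share over all regions within 10 kb of a protein-coding gene (diamonds). For WDM-WDO without WDM-CDO the diamond, at 22.9%, lies outside the interval of 8.19 to 21.3%, which did not hold with lists of equal length.

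How far the expected reads lay above the limit of detection differed between the lists, for the members as for other regions. Every region here was called in the list its level was taken from, so expected reads tend to be too high. Reaching a call on this scale therefore does not show that a site was closed in the other list. Of the 37 regions in WDM-CDO and not in CDM-CDO, 22 (59.5%, against 61.9% near all genes) would be expected to reach a call in CDM-CDO at the same scaled level, and 1 (2.7%, against 6.36%) to reach 1.5 times the reads needed. Of the 28 that WDM-WDO had and CDM-WDO lacked, 22 (78.6%, against 68.5%) and 3 (10.7%, against 12.0%) did so. The shares were 76.0% (83.0%) and 24.0% (21.4%) for the 25 in CDM-CDO without CDM-WDO, and 79.4% (78.3%) and 11.8% (15.9%) for the 34 in WDM-CDO without WDM-WDO. In the 4 reverse directions every region would reach a call, near the members and near all genes. That outcome was fixed in advance and carries no information, because the list without the call had the larger scale factor each time. There 1.5 times the reads needed was expected for 6 of 14 regions in CDM-CDO without WDM-CDO (42.9%, against 37.8%), 5 of 16 in CDM-WDO without WDM-WDO (31.2%, against 38.1%), 7 of 16 in CDM-WDO without CDM-CDO (43.8%, against 33.8%) and 5 of 14 in WDM-WDO without WDM-CDO (35.7%, against 40.6%). In the regions that all 4 lists shared, the members varied about as much as other regions. The standard deviation of their log2 differences was 0.28, 0.49, 0.55 and 0.52 over 39 regions in the 4 comparisons, in the order given here, against 0.33, 0.44, 0.54 and 0.53 over 10351 regions. Outside the central 95% of all shared regions lay 1, 4, 1 and 2 of the 39.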

How the data were processed

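ATAC-seq samples were grouped by their titles, 2 per diet group. The 4 H3K27ac samples were not analysed here. Per the submitters' processing notes, the build was GRCm38 (mm10), and the tools named there, without roles, are MACS2 2.2.9.1, Bowtie2 2.4.5 and Trim Galore 0.6.10. Settings, pooling of samples, blacklists and any shift of read ends for the transposase are not given in the sources used here. Of each peak, the fold over local background (a ratio), −log10 p, −log10 q and the integer score are as the authors deposited them, and the score was not used for any result.

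Summit pileups were recovered here from the deposited fold and −log10 p, with a whole number of reads within a tolerance of 0.0001 for 100% of peaks. The recovery was tested on simulated data. Scaled reads are the pileup minus local background, divided by the list's median ratio over regions in all 4 lists. Peaks of the 4 lists that overlapped by at least 1 bp were merged into regions. Peaks on chromosome Y (4, 5, 3 and 8) were left out. Gene spans and starts are those of RefSeq for GRCm38.p6; the ends served for 4 members without a start. For a region called in 1 list, the reads expected in another are that list's estimated local background plus the scaled reads times its factor. The local background was taken from the list with the peak, times the median ratio between the lists over regions in both, and not below the genome background (4.84, 5.59, 5.49 and 6.08). The reads needed are those that reach the list's lowest −log10 p over that background. The scaled reads come from a list in which the region was called, so expected reads tend to be too high. At regions in both lists the central 95% of actual backgrounds lay within 0.68 to 1.47 times the estimate in every direction, so ratios near 1 are uncertain. The counting SE of a log2 difference covers read counting only. Differences between lists have no test, because each group has 1 list. Python 3.11.15, pandas 2.3.3, NumPy 2.4.6 and SciPy 1.17.1 were used.

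Described one by one were members with a peak in some lists only, with 5 or more regions, or with one of the 10 highest −log10 q peaks, and the remaining members more briefly. The members and gene lists were chosen with earlier results of these data known. Alternatives were a stricter −log10 q of 5, lists cut to equal length, other windows, nearest genes and 50% overlap. The local background, and the shares of all genes under equal length and other windows, were added after seeing the data.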

Additional observations from a re-analysis of the deposited data

Results flagged for a closer look

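At 5 regions the direction of the maternal comparison was opposite under the 2 offspring diets, in that 1 list of each pair held a call and the other did not. Each group had 1 list, so this difference was not tested. Rara, a retinoic acid receptor gene, had a region 5.4 kb into the gene in CDM-CDO and WDM-WDO only, with a highest −log10 q of 16.6. The region at the lower-coordinate end of Thra, a thyroid hormone receptor gene, was in the same 2 lists, with a highest −log10 q of 7.39. A region past the end of Nr4a3, an immediate early gene, was also in these lists, at 2.72. Beside the Thra and Nr4a3 regions, WDM-CDO had a separate peak of its own, with 18.5 and 14.8 scaled reads. In WDM-CDO and CDM-WDO only were a region of Pgr, the progesterone receptor gene, at 4.2 and a region inside Rarb at 2.61. Some of these missing calls lay close to the limit. In CDM-WDO at the level of WDM-WDO, 22.0 reads would be expected at Thra (21 needed) and 16.3 at Nr4a3 (17 needed). In CDM-CDO at the level of WDM-CDO, 17.3 would be expected at Pgr (16 needed) and 18.2 at Rarb (19 needed). In WDM-CDO at the level of CDM-CDO, 46.2 would be expected at Thra (24 needed) and 30.5 at Nr4a3 (22 needed). In WDM-WDO at the level of CDM-WDO, 38.4 would be expected at Pgr (24 needed) and 33.9 at Rarb (25 needed). In WDM-CDO and WDM-WDO here, reaching a call was fixed in advance, because each had a larger scale factor than the list giving the level. At the level of WDM-WDO, the Rara region would be expected to hold 57.7 reads in CDM-WDO, where a call over the local background needed 36, and 93.9 in WDM-CDO, where it needed 43. At the level of CDM-CDO it would hold 51.9 in WDM-CDO, where 40 were needed, and 33.8 in CDM-WDO, which is below the 34 needed. For the Rara region in WDM-CDO, at either level, reaching a call was again fixed in advance. Of the members' regions 2.38% had the first of these patterns and 1.59% the second, against 1.11% and 1.0% of regions near all genes.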

How the results depend on the processing

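No paired analysis was possible because each diet group has 1 peak list, and for the same reason no sample could be left out. Counting each summit gave no further value, since every peak had 1 summit. Of 147 alternative values, 119 stayed near the reported one and 28 moved. None of the values moved when shared peaks had to overlap by 50% (9 values) or when the start window was 250 bp or 2 kb (4 values each). With the gene span alone the peaks near members numbered 44 in CDM-CDO, 57 in WDM-CDO and 45 in WDM-WDO. Receptors with a peak in CDM-CDO but not WDM-CDO numbered 2 with the gene span alone, a 5 kb window, the nearest gene only or lists of equal length (18962 peaks), and 0 at a −log10 q of at least 5.

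At that stricter threshold the receptors with a peak in 1 list of a pair numbered 2 for WDM-CDO without CDM-CDO, 2 for WDM-WDO without CDM-WDO and 1 for the reverse. They numbered 1 for CDM-WDO without CDM-CDO, 3 for the reverse, 1 for WDM-WDO without WDM-CDO and 4 for the reverse. With lists of equal length they numbered 1 for WDM-CDO without CDM-CDO, 2 for WDM-WDO without CDM-WDO, 1 for WDM-WDO without WDM-CDO and 4 for the reverse. The share of regions in 1 list was, at the stricter threshold, 23.8% for WDM-CDO without CDM-CDO, 4.76% for the reverse, 3.77% for CDM-WDO without WDM-WDO, 9.43% for CDM-WDO without CDM-CDO and 23.9% for WDM-CDO without WDM-WDO, and 45.1% of regions were in all 4 lists. With equal length it was 19.7% for WDM-CDO without CDM-CDO (14.9% near all genes), 22.7% for WDM-WDO without CDM-WDO (28.2%) and 21.6% for WDM-CDO without WDM-WDO (19.9%). The stricter threshold and the equal length leave fewer peaks to count. Shares of all genes were not counted for the stricter threshold, nor, with equal length, for genes with a peak in 1 list of a pair. With equal length 27, 26, 26 and 23 receptors had a peak, so the higher number in WDM-CDO (34) did not hold. Of 12 shares, that of all genes lay outside the members' interval for 2 as deposited and 0 with equal length. It did so for 2 with the gene span alone, CDM-WDO without WDM-WDO (17.1 to 39% against 12.5%) and CDM-WDO without CDM-CDO (16.3 to 38.4% against 16.2%), and for 2 with a 5 kb window, genes with a peak in WDM-CDO (67.3 to 91.0% against 65.1%) and CDM-WDO without WDM-WDO (14 to 32.7% against 12.8%).

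Scale factors from the strongest 10% of shared regions (0.897, 1.38, 0.757 and 1.06), chosen after seeing the data, shifted the log2 differences of the 4 comparisons by −0.09, 0.07, −0.06 and 0.10. Of 39 shared member regions 5, 5, 1 and 3 changed sign, none with a difference above 0.09.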

Other observations

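Coregulators are the proteins through which nuclear receptors act on chromatin, and most of their genes had a peak. Of 20 coregulator genes, 20, 20, 18 and 19 had a peak within 10 kb in CDM-CDO, WDM-CDO, CDM-WDO and WDM-WDO, where 64.5%, 68.8%, 58.9% and 66.0% of all protein-coding genes did. The spans of the coregulator genes were not taken into account, although longer genes had a peak more often. Ncoa1, a coactivator gene, had 1 and 4 peaks in the CDO lists and 0 in both WDO lists, and its start region held 36.0 and 28.3 scaled reads. Tbl1xr1, which encodes a part of the NCoR and SMRT corepressor complexes, had 2, 4, 0 and 2 peaks, and its start region held 43.6 and 33.8 scaled reads in the CDO lists and was called in neither WDO list.

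Of 22 genes known to respond to these receptors, 18, 18, 17 and 19 had a peak, beside the same shares of all genes, again without regard to span. All 7 targets of the REV-ERBs and RORs had one in every list, and the start of Tef, a clock output gene, held 180, 173, 222 and 180.4 scaled reads. The start of Plin2, a lipid droplet gene and PPAR target, held 21.4, 29.4, 59.1 and 57.8, with both WDO lists above both CDO lists. Of other PPAR targets, the start of Cpt1a held 55.5, 44.4, 68.2 and 64.8, and that of Pdk4 47.1, 41.2, 62.8 and 30.5. The start of Tsc22d3 (GILZ), a glucocorticoid target, held 133, 105.3, 66.9 and 66, with both WDO lists below both CDO lists. Klf9, also a glucocorticoid target, went the other way, with 113, 99.7, 143.8 and 120.2 at its start. The start of Fkbp5, from the same set of targets, held 35.9, 43.5, 47.3 and 34.5, without such a split. Cyp24a1, a vitamin D target, had no peak in any list. Of the retinoic acid targets, Cyp26b1 had 1 in CDM-CDO only and Cyp26a1 had 1 in WDM-CDO and in WDM-WDO. Thrsp, a thyroid hormone target, had 2 peaks in WDM-WDO only.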
